A study of Mus musculus with 8 samples.

Results

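The p53 pathway was followed through 9 genes in the prefrontal cortex (PFC) of mice that overexpressed Rnf146, an E3 ubiquitin ligase that recognizes proteins carrying poly(ADP-ribose). The 9 genes were *Trp53*, which encodes p53, and 8 genes that p53 switches on directly, and they were taken from the expression table by gene symbol. *Eda2r*, a receptor of the tumor necrosis factor family, had no row among the 15039 genes of the table and was not analysed here, so 8 of the 9 genes are described. RNA sequencing covered 8 libraries of bulk PFC, 4 from Rnf146-overexpressing and 4 from eGFP-overexpressing wild-type male mice of the strain C57BL/6NCrljOri. The treated mice received AAV2/1-hsyn-RNF146-eGFP in both hemispheres at 6 weeks of age and their controls AAV2/1-hsyn-eGFP, and the tissue was dissected 4 weeks later. All mice therefore carried an AAV and expressed eGFP, and the synapsin promoter drives the transgene in neurons, whereas the tissue also holds glia, vessels and neurons without the virus.

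p53 is a transcription factor that is kept scarce in unstressed cells because Mdm2 marks it for degradation. DNA damage and other stresses stabilize the protein, which then switches on genes for cell cycle arrest, DNA repair, cell death and its own control by Mdm2. Since p53 is controlled largely as a protein, the RNA of its target genes is commonly read as a sign of its activity, and in neurons the same pathway is known for its part in cell death after injury.

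The deposited values are on a log2 scale and ran from 7.86 to 18.8. For each gene the 2 libraries with the same replicate number add up to 1 constant, which leaves a mean and 4 differences within pairs for each gene, and every difference below is Rnf146 minus eGFP within a pair. *Rnf146* itself was higher by 2.82, 2.51, 2.66 and 2.58 in the 4 pairs, 2.64 ± 0.13 on average (SD, n = 4 pairs). The scale compresses changes at the level of the p53 genes, where 1 unit of log2 change in the count moves the value by 0.55 for *Phlda3* to 0.81 for *Ccng1*. Depth per library is unknown here, since the values analysed are not counts.

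p53 target genes carry sites that p53 binds as pairs of a half-site of 10 bases. The half-site consensus, searched without mismatch and reading the same on both strands, was found in the promoter windows of 6 of the 8 genes of the group with a RefSeq window, from 250 bases before to 50 after the gene start. It was found in 6 of their 10 windows and in 8.36% of all 32851 windows of this length. Of the further p53 pathway genes described below, 61 had a window and 9 of these 61 had a match. The matches of 5 target genes are shown so that the letters behind these counts can be read, with the half-site in capitals, 5′ to 3′ on the gene's strand, from RefSeq on GRCm38.p6. A partner half-site with a mismatch would stay in lower case. Capitals therefore do not mark complete sites, and capitalized matches in the same stretch need not form a pair. They lie at chr17:29090876-29090967 (plus strand) for *Cdkn1a*, chr10:117710905-117710974 (minus) for *Mdm2* and chr11:40755432-40755501 (minus) for *Ccng1*. For *Bax* and *Sesn1* they lie at chr7:45467060-45467129 (minus) and chr10:41887236-41887305 (plus).
Cdkn1a: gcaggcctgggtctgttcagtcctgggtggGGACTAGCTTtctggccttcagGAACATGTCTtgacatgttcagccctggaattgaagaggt
Mdm2: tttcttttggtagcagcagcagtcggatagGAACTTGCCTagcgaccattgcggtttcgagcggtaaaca
Ccng1: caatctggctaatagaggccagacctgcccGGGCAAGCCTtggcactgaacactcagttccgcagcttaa
Bax: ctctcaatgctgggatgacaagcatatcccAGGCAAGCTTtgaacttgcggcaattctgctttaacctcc
Sesn1: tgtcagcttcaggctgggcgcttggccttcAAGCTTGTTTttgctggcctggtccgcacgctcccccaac

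The *Cdkn1a* stretch belongs to the more upstream of its 2 annotated starts, 2790 bases from the other, and this window was among the 0.359% of windows with at least 2 matches. The *Sesn1* stretch belongs to the more downstream of its 2 starts. *Phlda3* and *Eda2r* had no match in their windows, *Trp53* had 1, and *Trp53inp1* was not searched. A match describes the letters of the window and not the binding of p53 in this tissue.

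None of the 8 genes passed the test of Rnf146-overexpressing against eGFP-overexpressing PFC. In limma, with replicate numbers entered as blocks, 0 of them reached the adjusted p of 0.1 that counts as a call here, which 1.25% of all 15039 genes reached. At an unadjusted p under 0.05 the count was 1, *Cdkn1a*, against 12.4% of all genes. Not 1 of the 8 moved in the same direction in all 4 pairs, a pattern that 20.6% of all genes showed, so the ranges of the 2 groups overlapped for each of them. The median of the 8 mean differences was -0.017, beside 0.00086 over all genes, and 2 of the 8 means lay above 0.

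**Figure D1:**
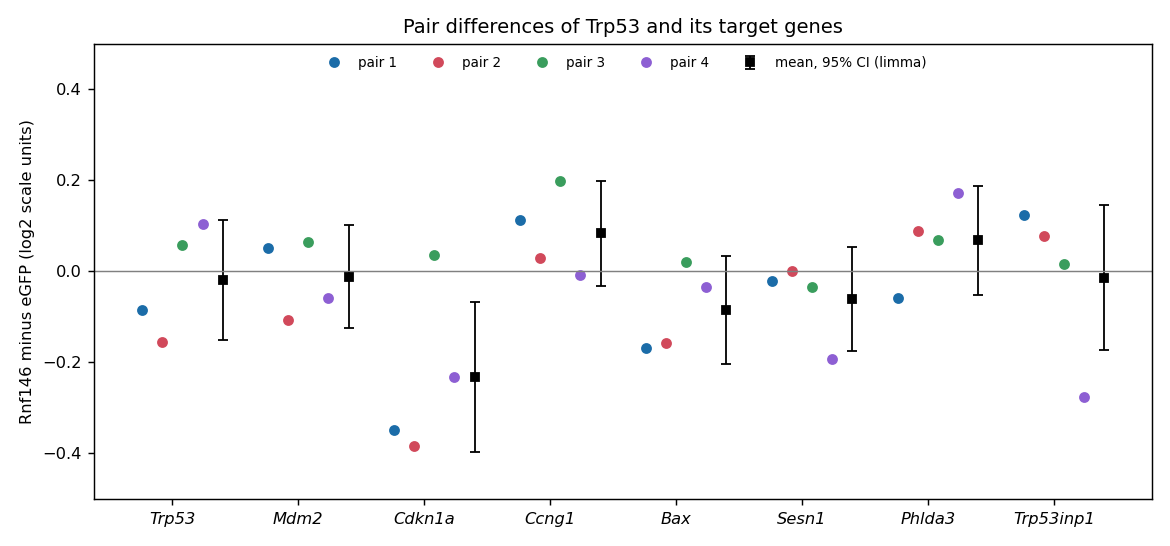
Rnf146 minus eGFP difference (vertical axis, log2 scale units) of *Trp53* and 7 target genes. Colored points are the 4 pairs. Squares with bars are the mean and its 95% confidence interval from limma, whose variances are drawn toward a trend over all genes. *Cdkn1a* has the lowest mean, at -0.23, and the interval of each of the other 7 genes spans 0.

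*Trp53* lies on chromosome 11 (GRCm39, 69469669 to 69482701, plus strand). Its value was 9.72, 9.76, 9.65 and 9.63 in eGFP libraries 1 to 4 and 9.64, 9.60, 9.71 and 9.73 in the Rnf146 libraries. *Trp53* was lower with Rnf146 in pairs 1 and 2 and higher in pairs 3 and 4. The mean difference was -0.019 ± 0.12 (SD, n = 4 pairs), with a 95% confidence interval from -0.15 to 0.11 and an adjusted p of 0.933 from limma. On the scale of normalized counts this interval runs from 0.840-fold to 1.14-fold.

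Negative feedback on p53 was represented by *Mdm2* and *Ccng1*. *Mdm2* (chromosome 10, 117524780 to 117546730, minus strand), the ubiquitin ligase that removes p53, is one of the most p53-responsive genes known. Its value was 10.53, 10.61, 10.52 and 10.58 in the eGFP libraries and 10.58, 10.50, 10.59 and 10.53 in the Rnf146 libraries. The 2 groups covered nearly the same range, and the direction turned from pair to pair. The mean difference was -0.012 ± 0.083 (SD, n = 4 pairs), with a 95% confidence interval from -0.13 to 0.10 and an adjusted p of 0.953. In normalized counts the interval spans 0.892-fold to 1.10-fold.

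*Ccng1* (chromosome 11, 40639377 to 40646148, minus strand) encodes cyclin G1, which helps to activate Mdm2. It had the highest mean difference of the 8 genes, with 10.92, 10.96, 10.87 and 10.98 in the eGFP libraries and 11.03, 10.99, 11.07 and 10.97 in the Rnf146 libraries. The difference was positive in pairs 1, 2 and 3 and -0.0076 in pair 4. At 0.084 ± 0.092 (SD, n = 4 pairs) the mean did not exceed the SD, and limma gave an adjusted p of 0.540. The interval in normalized counts ran from 0.974-fold to 1.18-fold.

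*Cdkn1a* (chromosome 17, 29309936 to 29319701, plus strand) encodes p21, the inhibitor of cyclin-dependent kinases through which p53 arrests the cell cycle. Its value was 9.86, 9.88, 9.67 and 9.80 in the eGFP libraries and 9.51, 9.49, 9.70 and 9.57 in the Rnf146 libraries. Pairs 1, 2 and 4 were lower with Rnf146, by -0.35, -0.38 and -0.23, and pair 3 was higher, by 0.036. The mean of -0.23 ± 0.19 (SD, n = 4 pairs) was the largest of the 8 genes in size, and 3.40% of all genes had a larger absolute difference. The 95% confidence interval from limma ran from -0.40 to -0.067. Its width rests on a variance drawn toward the trend over all genes and not on the 4 differences alone. In normalized counts the mean corresponds to 0.764-fold, with an interval from 0.631-fold to 0.925-fold. The adjusted p over all genes was 0.240 and missed the threshold, although the mean was larger in size than the smallest mean difference of a called gene, 0.20.

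The call of *Cdkn1a* depended on pair 3 and on the block. Without pair 3 the difference was -0.32 with an adjusted p of 0.089, and it was called. Without the replicate block, which counts the centred values of a pair as separate libraries, the adjusted p was 0.034, and *Cdkn1a* was the 1 member called, in a fit that called 21.5% of all genes. Over all 12 alternative fits the adjusted p ran from 0.034 to 0.936, the latter when striatal and septal markers entered as a covariate, where the difference was -0.20. The difference was below 0 in each of these fits.

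**Figure D2:**
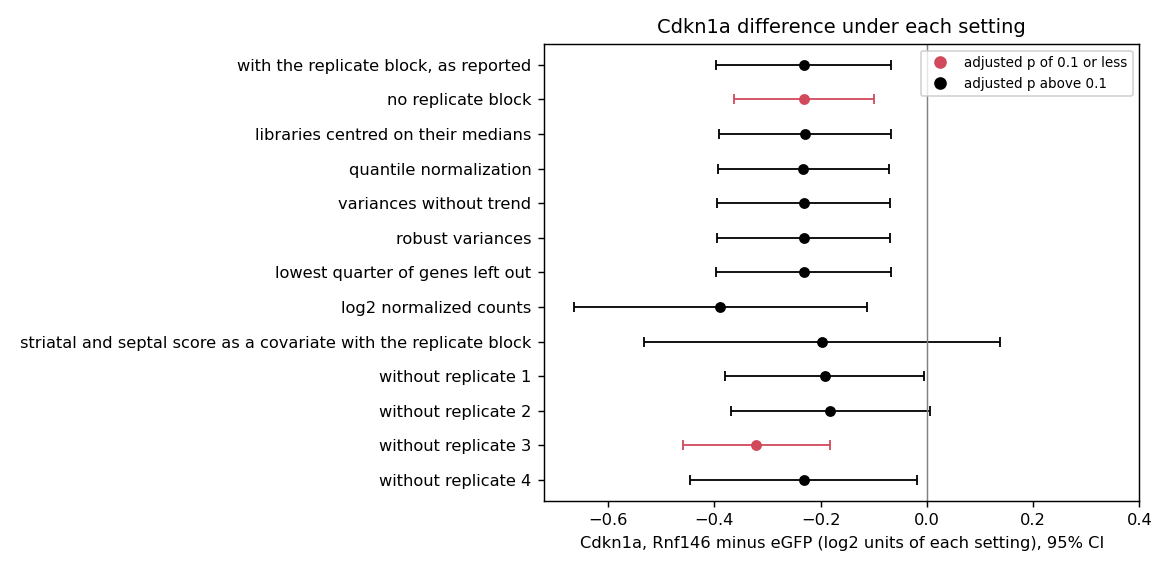
*Cdkn1a* difference (horizontal axis, Rnf146 minus eGFP, log2 units of each fit) with its 95% confidence interval in the reported fit and in 12 alternatives, 1 per row. Red marks the 2 fits in which it was called, without the replicate block and without replicate 3; all 13 means lie below 0, from -0.39 to -0.18.

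Cell death was represented by *Bax*, *Phlda3* and *Trp53inp1*. *Bax* (chromosome 7, 45111015 to 45116325, minus strand), which opens the outer mitochondrial membrane, had 9.94, 9.94, 9.85 and 9.87 in the eGFP libraries and 9.77, 9.78, 9.87 and 9.84 in the Rnf146 libraries. It was lower with Rnf146 in pairs 1, 2 and 4, as *Cdkn1a* was, and its mean difference was -0.085 ± 0.093 (SD, n = 4 pairs), at an adjusted p of 0.554. The interval in normalized counts ran from 0.800-fold to 1.04-fold.

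*Phlda3* (chromosome 1, 135693809 to 135697686, plus strand) encodes a small protein that keeps the survival kinase Akt from the membrane. Its value was 9.52, 9.45, 9.46 and 9.41 in the eGFP libraries and 9.47, 9.54, 9.53 and 9.58 in the Rnf146 libraries. It was higher with Rnf146 in pairs 2, 3 and 4 and lower in pair 1. The mean was 0.068 ± 0.095 (SD, n = 4 pairs), at an adjusted p of 0.659, and the interval in normalized counts ran from 0.936-fold to 1.27-fold.

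*Trp53inp1* (chromosome 4, 11156412 to 11175230, plus strand) encodes a stress-induced protein that promotes p53-dependent death and autophagy. It had 9.69, 9.71, 9.74 and 9.89 in the eGFP libraries and 9.81, 9.79, 9.76 and 9.61 in the Rnf146 libraries. Pair 4 stood against the other 3, with -0.27 beside 0.12, 0.079 and 0.016. The mean difference was -0.014 ± 0.18 (SD, n = 4 pairs), at an adjusted p of 0.961, and without pair 4 it was 0.073. The interval in normalized counts ran from 0.822-fold to 1.18-fold.

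*Sesn1* (chromosome 10, 41685931 to 41784423, plus strand) encodes sestrin 1, which restrains growth signaling through mTORC1 under stress. Its value was 10.63, 10.62, 10.64 and 10.72 in the eGFP libraries and 10.61, 10.62, 10.61 and 10.53 in the Rnf146 libraries. Differences were -0.020, 0.00074 and -0.033 in pairs 1 to 3, and pair 4 reached -0.19. The mean was -0.061 ± 0.088 (SD, n = 4 pairs), at an adjusted p of 0.679, and the interval in normalized counts ran from 0.853-fold to 1.05-fold.

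**Figure D3:**
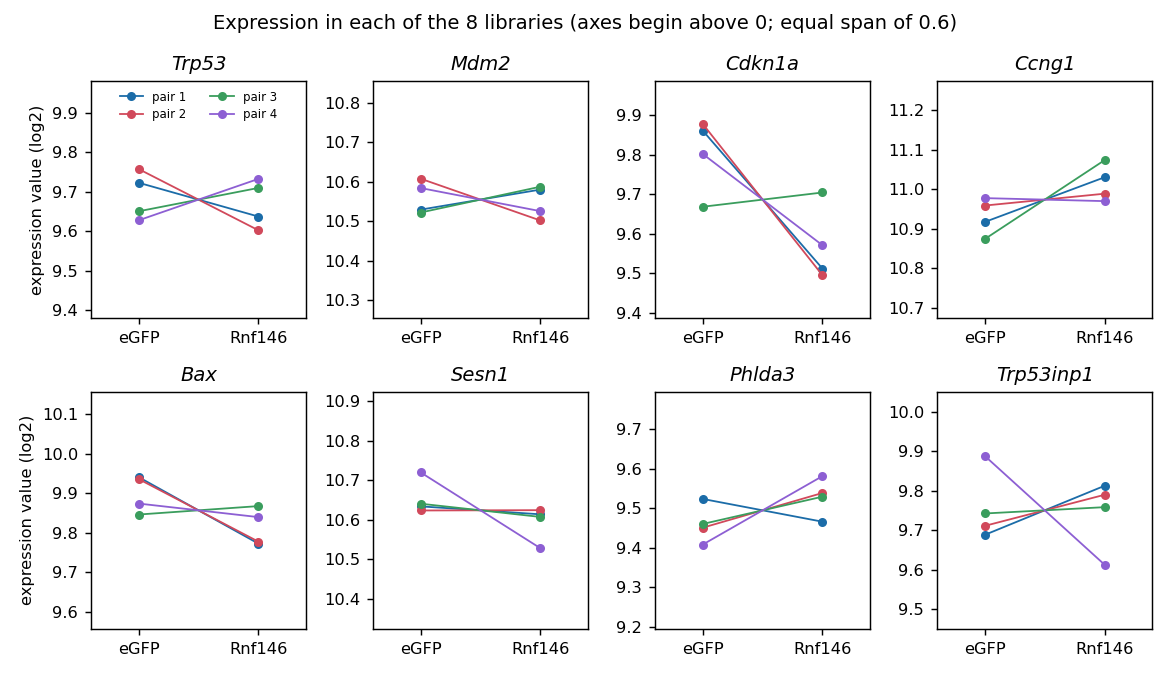
Expression value (vertical axis, log2) of the 8 genes in each library, with lines joining libraries of the same replicate number and an equal span of 0.6 units in every panel. The lines of each panel cross at the gene's mean because the deposited values were centred within pairs, and only the *Cdkn1a* panel has 3 steep lines in 1 direction, from 9.80 or more down to 9.57 or less.

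The direction of the members differed between the pairs. In pair 3, 7 of the 8 genes were higher with Rnf146, with a median difference of 0.048, while in pair 4, 6 of the 8 were lower, with a median of -0.046. In pairs 1 and 2, 3 and 4 of the 8 were higher, with medians of -0.039 and -0.052. Over all genes, between 49.2% and 51.1% were higher in each pair. *Trp53* itself was lower in pairs 1 and 2, where *Bax* and *Cdkn1a* had their lowest differences, and it had its highest difference in pair 4, where *Sesn1* and *Trp53inp1* had their lowest. SDs between pairs ran from 0.083 for *Mdm2* to 0.19 for *Cdkn1a*, beside a median SD of 0.098 over all genes.

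Levels of different genes were compared per kilobase of the canonical GENCODE transcript, after conversion to approximate normalized counts. *Bax* was highest at 572 per kilobase, followed by *Ccng1* at 460, *Sesn1* at 458 and *Mdm2* at 361. *Trp53* had 247 and *Cdkn1a* 239, and *Phlda3* and *Trp53inp1* were lowest at 159 and 79.0. The ranges over the 8 libraries overlapped between *Ccng1* and *Sesn1* and between *Trp53* and *Cdkn1a*, and did not overlap between the other neighbors in this order. Since values were centred within pairs, these ranges leave out part of the spread between mice.

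In 70 further genes of the pathway, listed by role from general knowledge, 62 had values and 0 were called in limma with the block. At an unadjusted p under 0.05 there were 8, 5 higher and 3 lower, which is 8 of 62 beside the 12.4% of all genes. The same direction in all 4 pairs was seen in 12 of the 62, 7 higher and 5 lower, beside 20.6% of all genes. Without the block 16 were called, 8 in each direction, beside 21.5% of all genes. Those of the 16 that are named below are *Hipk2*, *Sertad1*, *Btg2*, *Rps27l*, *Triap1*, *Ddit4* and *Tlr3*. Their adjusted p-values from limma were 0.080, 0.056, 0.014, 0.044, 0.073, 0.062 and 0.022 without the block. That fit counts the centred values of a pair as separate libraries, so these p-values overstate the evidence. The median difference of the 62 genes was -0.0039, and with the block their adjusted p-values ran from 0.226 upward.

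Among the relatives of p53 and the proteins that control it, 17 of 19 had values, 13 had a mean above 0, and the median was 0.069. *Hipk2*, a kinase that phosphorylates p53, had the highest mean, 0.20 ± 0.22 (SD, n = 4 pairs), at an adjusted p of 0.345. Its differences were -0.10, 0.42, 0.28 and 0.21, so pair 1 stood against the others, and without pair 1 the difference was 0.30 with an adjusted p of 0.052. With the striatal and septal score as a covariate its sign turned, to -0.083. *Ep300*, an acetyltransferase and coactivator of p53, had the lowest mean, -0.092 ± 0.19, at an adjusted p of 0.654, with 2 pairs above and 2 below 0.

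Among the targets for cell cycle arrest, 7 of 10 had values, 6 had a mean below 0, and the median was -0.094. *Sertad1*, a regulator of E2F-dependent transcription, had the lowest mean, -0.19 ± 0.18 (SD, n = 4 pairs), at an adjusted p of 0.317. *Btg2*, an antiproliferative gene that neuronal activity also induces, was lower in all 4 pairs, by -0.068, -0.27, -0.20 and -0.12, on average by -0.16 ± 0.087, at an adjusted p of 0.241. *Btg1* had the highest mean of this list, 0.045 ± 0.087, at an adjusted p of 0.775.

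Among the targets for cell death, 12 of 14 had values and the median was -0.021. *Dram1*, a lysosomal membrane protein of autophagy, had the highest mean, 0.069 ± 0.23 (SD, n = 4 pairs), and *Apaf1*, the core of the apoptosome, the lowest, -0.12 ± 0.32. Both rested on single pairs, since *Dram1* had 0.39 in pair 1 and *Apaf1* had -0.51 in pair 2 against 0.28 in pair 1. Their adjusted p-values were 0.777 and 0.698.

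All 10 targets for DNA repair and nucleotide supply had values, with a median of 0.0080. *Rps27l*, a ribosomal protein paralog, had the highest mean, 0.085 ± 0.054 (SD, n = 4 pairs), was higher in all 4 pairs and had an adjusted p of 0.477. *Triap1*, placed in this list although it is an inhibitor of apoptosis, had the lowest mean difference, -0.092 ± 0.081, at an adjusted p of 0.495.

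Among the targets for metabolism and stress, 16 of 17 had values, with a median of -0.0093. *Tlr3*, a receptor for double-stranded RNA, was higher in all 4 pairs, by 0.056, 0.13, 0.37 and 0.22, on average by 0.20 ± 0.13 (SD, n = 4 pairs), and its adjusted p of 0.226 was the lowest of the 62 genes. *Ddit4*, an inhibitor of mTORC1, had the lowest mean, -0.18 ± 0.17, and an adjusted p of 0.340.

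**Figure D4:**
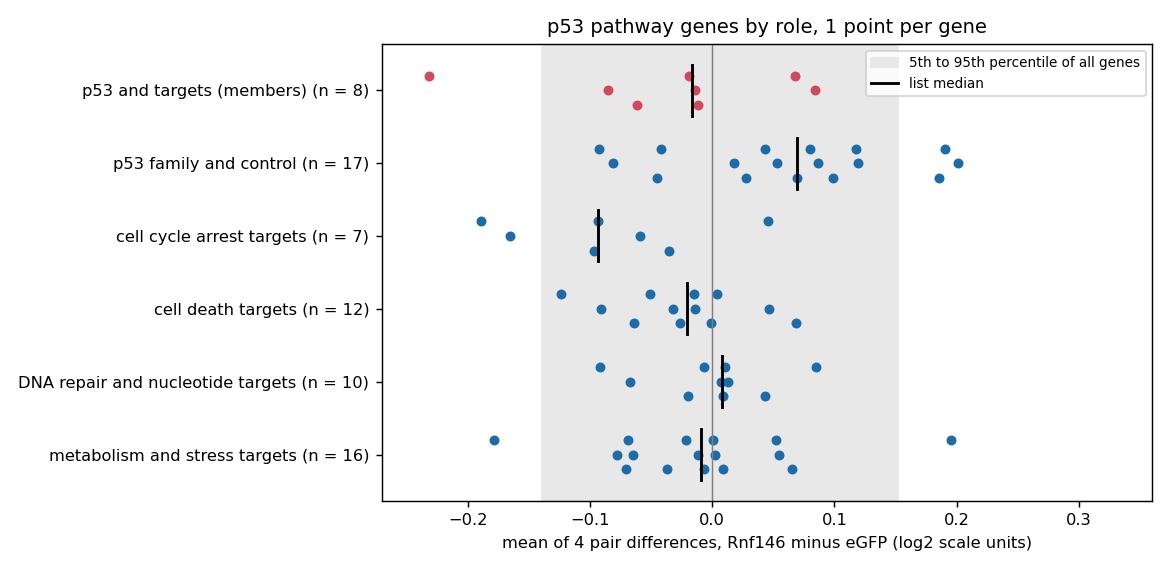
Mean of the 4 pair differences (horizontal axis, log2 scale units) of each p53 pathway gene, by role, with the 8 members in red and the 62 other genes in blue. Black bars are list medians and the grey band runs from the 5th to the 95th percentile of all 15039 genes, -0.14 to 0.15. List medians run from -0.094 for cell cycle arrest to 0.069 for p53 family and control. The quartiles of all genes are -0.048 and 0.051. The band describes single genes and is no measure for a list median. Of the members, *Cdkn1a* lies to the left of the band.

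Markers of several cell types also moved between the groups, and in bulk tissue fewer cells of a type and less RNA per cell cannot be told apart. Markers of cortical excitatory neurons, all 10 with values, differed by -0.24, -0.36, -0.029 and -0.18 on average in the 4 pairs, with 9 of the 10 lower and 2 called. The mean level of this list was between 11.27 and 11.44 in the eGFP libraries and between 11.08 and 11.25 in the Rnf146 libraries. Microglial markers, all 8 with values and all 8 with a mean below 0, differed by -0.21, -0.26, -0.079 and -0.11, and 1 was called. Their mean level was between 10.31 and 10.40 in the eGFP libraries and between 10.14 and 10.23 in the Rnf146 libraries. Both lists were lowest in pair 2 and highest in pair 3, as were *Cdkn1a*, the mean of all 8 members (-0.076 and 0.054) and the endothelial markers described below, and their part in the difference of *Cdkn1a* was not tested.

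**Figure D5:**
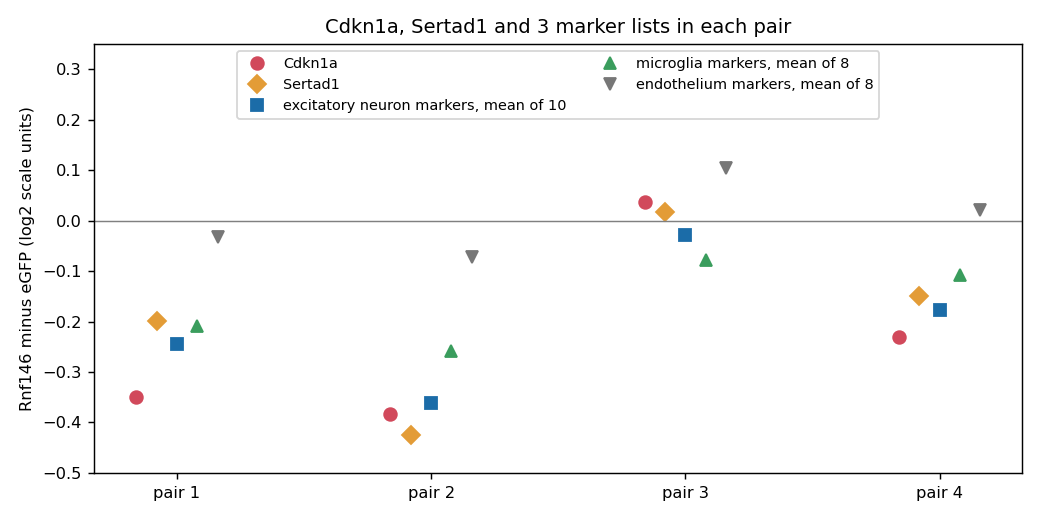
Rnf146 minus eGFP difference (vertical axis, log2 scale units) in each pair for *Cdkn1a*, for *Sertad1*, the listed p53 gene with the pair differences nearest to it, and for the mean of 10 excitatory neuron, 8 microglia and 8 endothelium markers. All 5 series have their lowest value in pair 2, from -0.42 to -0.072, and their highest in pair 3, from -0.079 to 0.10. *Sertad1* was picked by its nearness in these same differences, so its likeness was fixed by the choice. The marker lists that are not drawn had other orders of the pairs.

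The 8 endothelial markers had the same order of pairs, -0.033, -0.072, 0.10 and 0.022, with an average of 0.0052 ± 0.077 and 0 called. The 8 measured markers of septum and basal forebrain, of 12 listed, were all called higher, with averages of 0.54, 0.67, 0.33 and 0.56 in the 4 pairs. The 12 striatal markers averaged -0.11, 1.29, 0.69 and 0.27, with 0 called. All 12 had a mean above 0, and 11 had an unadjusted p under 0.05 in limma, beside 12.4% of all genes. *Hipk2* had its lowest and its highest difference in the same pairs as this list, 1 and 2. The 10 oligodendrocyte markers averaged -0.14, 0.46, 0.93 and 0.54, with 0 called, and the 8 interneuron markers averaged 0.011, 0.15, 0.17 and 0.19, with 3 called higher, although 5 of the 8 means lay below 0 and the median was -0.042. The 8 astrocyte markers averaged -0.089, -0.052, 0.055 and -0.033 in the 4 pairs, -0.030 ± 0.061 over the pairs, with 0 called. The lowest mean of any marker was 8.63, for *Isl1*, above the lowest deposited value of 7.86. The part of these lists in the values of the p53 genes was not tested.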

How the data were processed

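Bulk PFC RNA was sequenced in 4 libraries with Rnf146 and 4 with eGFP overexpression, 1 library per group and replicate number. That each library is 1 mouse is not stated in the labels. With the block, p-values rest on the 4 differences between same-numbered libraries. They do not measure the spread of these differences alone, since limma draws each gene's variance toward a trend over all genes. The authors trimmed reads with Cutadapt, quantified transcripts with Salmon 1.9.0 against GENCODE vM30 (GRCm39) and, per the labels, used DESeq2. The deposited values are log2 values, although the table is named normalized counts. Transformation, centring and strand setting are not given in the sources used here. All 8 columns were matched by name.

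Same-numbered libraries sum to a constant per gene (largest spread 1.4e-13), which fixes the correlation of their deviations at -1. Replicate numbers from the labels were therefore a block, with 3 residual degrees of freedom in place of 6. Limma 3.58.1 (R 4.3.3; lmFit, eBayes with trend) was fitted to all 15039 genes, with Benjamini-Hochberg adjustment, and the threshold for a call was an adjusted p of 0.1. Fits were tested on simulated data.

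Approximate normalized counts came from a variance-stabilizing curve fitted to mean counts of 294 genes in the study's supplement, with an offset of 0.5. The median absolute residual was 0.0058 and the largest 0.54. All fold values and their intervals rest on this curve and are approximate. Coordinates and transcript lengths are from GENCODE vM39 (GRCm39), promoter windows from RefSeq (GRCm38.p6).

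The members, lists and tests were chosen with earlier results of these data known. Genes named are the members, *Rnf146*, in each further list the genes with the highest and lowest mean difference and any called gene, and the 3 listed genes nearest to the member with the largest difference. Alternatives were no replicate block, median centring, quantile normalization, variances without trend or robust, an adjusted p of 0.05, the lowest 25% of genes left out, log2 normalized counts, a covariate of striatal and septal markers, and each pair left out. Python 3.11.15, pandas 2.3.3, numpy 2.4.6 and matplotlib 3.10.9 were used.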

Additional observations from a re-analysis of the deposited data

How the results depend on the processing

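Without the replicate block, 3226 of all genes, 1 of the 8 members and 16 of the 62 further p53 genes were called, against 188, 0 and 0 with it. *Cdkn1a* was the member, with the same difference of -0.23. With an adjusted p of 0.05 or less 80 genes were called, and with the striatal and septal covariate, which leaves fewer residual degrees of freedom, 3. Its 8 septal markers were themselves called higher with Rnf146, so this covariate shares part of the group contrast. The 95% confidence interval of *Cdkn1a* then ran from -0.53 to 0.14. With each pair left out in turn, which leaves fewer samples, the calls ranged from 14 (without pair 4) over 42 (without pair 2) to 421 (without pair 1) for all genes and from 0 to 1 for the members and for the further genes. The 1 member was *Cdkn1a* without pair 3, and the 1 further gene was *Hipk2* without pair 1. The sign turned with the covariate for *Trp53* (0.055), *Mdm2* (0.067), *Hipk2* (-0.083), *Btg1* (-0.019) and *Apaf1* (0.30), and the cause was not tested. With pairs left out, the differences ranged from -0.060 to 0.026 for *Trp53*, -0.038 to 0.019 for *Mdm2*, -0.060 to 0.073 for *Trp53inp1*, -0.040 to 0.12 for *Dram1* and -0.26 to 0.0048 for *Apaf1*. Without a change of sign, they ranged from 0.045 to 0.11 for *Ccng1*, -0.12 to -0.057 for *Bax*, -0.082 to -0.018 for *Sesn1*, 0.033 to 0.11 for *Phlda3*, -0.15 to -0.021 for *Ep300*, -0.26 to -0.11 for *Sertad1* and -0.15 to -0.0047 for *Gls2*. With pairs left out, *Cdkn1a* and *Hipk2* were called once each, and the other genes given here 0 times. In the other fits, the 8 members kept their sign, and their median difference lay below 0 in all 12 alternatives, from -0.045 to -0.0071.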

Other observations

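Of the 62 further p53 genes, the 3 whose 4 pair differences lay nearest to those of *Cdkn1a* were *Sertad1*, *Gls2* and *Btg2*, at Euclidean distances of 0.18, 0.40 and 0.40. *Sertad1* differed by -0.20, -0.42, 0.016 and -0.15 in the 4 pairs, and 0.239% of all genes lay nearer to *Cdkn1a* than it did. *Gls2*, a mitochondrial glutaminase, differed by -0.30, -0.26, 0.11 and 0.13, on average by -0.078 ± 0.23 (SD, n = 4 pairs), and 6.70% of all genes lay nearer. With 4 points per gene these distances describe the libraries only.

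Several members share their locus with another gene of the table. *Wrap53*, on the strand opposite to *Trp53*, had a mean difference of 0.030, *Nudcd2*, opposite to *Ccng1*, had 0.0042, and *Cep57l1*, opposite to *Sesn1*, had 0.037. Their adjusted p-values from limma were 0.885, 0.986 and 0.874. The library kit keeps the strand, and the strand setting of the counting is not given in the sources used here.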
